A study of Mus musculus with 9 samples.

Results

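Nuclear-encoded subunits of oxidative phosphorylation were followed in RNA sequencing of mouse lung. The members were the protein-coding genes of the deposited table named as NADH dehydrogenase subunits (Nduf with a, b, c, s or v and a number), as Sdha to Sdhd, or with symbols beginning with Uqcr, Cox4 to Cox8 and a letter, or Atp5. They numbered 84 of 55851 genes, of which 21926 are protein-coding. By name, 36 belonged to complex I, 4 to complex II, 8 to complex III, 18 to complex IV and 18 to complex V. All 9 libraries were made from RNA of lung cells of female C57BL/6J mice, with a time label of 7 weeks. They fell into 3 groups of 3: ovalbumin-challenged DJ-1 knockouts (DJ-1 KO OVA: DJ1_KO_OVA_263, DJ1_KO_OVA_266 and DJ1_KO_OVA_267), ovalbumin-challenged wild types (WT OVA, libraries 5, 6 and 9) and wild types that received phosphate-buffered saline (WT PBS, libraries 1, 2 and 3). Ovalbumin challenge is a model of allergic airway inflammation, and DJ-1 is the product of Park7 and is known for shielding cells from oxidative stress. The labels do not say how the knockout was made, and there was no knockout group given saline, so a response to ovalbumin within the knockout cannot be told apart from the genotype itself.

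Oxidative phosphorylation takes place in the inner mitochondrial membrane. Complexes I and II pass electrons from NADH and succinate to ubiquinone, complex III passes them to cytochrome c and complex IV to oxygen. Complexes I, III and IV pump protons, and complex V, the ATP synthase, uses the proton gradient to make ATP. Most subunits are encoded in the nucleus, and a few in the mitochondrial genome. Complex II is also an enzyme of the citric acid cycle and has no mitochondrially encoded subunit. Several complex IV subunits exist as paralogs, 1 widely expressed and 1 restricted to tissues such as heart and skeletal muscle.

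Park7 was at 3.96, 7.29 and 3.97 FPKM in DJ-1 KO OVA, against 57.9, 53.1 and 60.5 FPKM in WT OVA and 49.6, 53.8 and 36.7 FPKM in WT PBS. FPKM is the number of reads of a gene divided by its length and by the size of the library. The deposited values allowed whole reads to be recovered, 20812192 to 29080130 per library. The sum of FPKM per library ran from 308542 to 472548 in DJ-1 KO OVA, from 570483 to 602047 in WT OVA and from 392285 to 551459 in WT PBS, so that an FPKM value stands for a different share of the library in each group. Summed markers of alveolar type 2 cells, among them Sftpc, were 6276 to 13406 FPKM in DJ-1 KO OVA, 32230 to 41177 FPKM in WT OVA and 24853 to 41575 FPKM in WT PBS. Sftpc alone made up most of each sum, so the sums say little about the other markers of the list. Such markers are defining for lung and were present in every library. In RNA of mixed cells, fewer cells of a type and less RNA per cell cannot be told apart.

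Of the 84 members, 80 had a mean of at least 0.2 FPKM over the 9 libraries and were tested. The other 4 were Ndufs3, an iron-sulfur protein of complex I with at most 1 read per library, and Cox7b2, Cox8c and a second identifier of Atp5o (ENSMUSG00000116933), which were listed at 0. It is not known whether reads of Ndufs3 were lost in counting, so its value near 0 is not read as its level. Group means of the tested members ran from 0.246 FPKM (Cox8b) to 414 FPKM (Cox8a) in DJ-1 KO OVA, with a median of 49.6. They ran from 1.91 FPKM (Uqcrc1) to 662 FPKM (Cox4i1) in WT OVA, with a median of 80.5, and from 1.63 FPKM (Ndufb2) to 397 FPKM (Cox4i1) in WT PBS, with a median of 59.3. Some subunits that every cell with mitochondria needs were low on this scale, among them Uqcrc1, a core protein of complex III, Ndufs1 and Atp5a1, so levels are compared within a gene and not between genes. Exons of 30 members overlapped another gene, by over 20% of the exon length in 4 of them.

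Summed over the members, expression was 3642, 7999 and 4808 FPKM in DJ1_KO_OVA_263, DJ1_KO_OVA_266 and DJ1_KO_OVA_267, against 9082, 7180 and 9990 FPKM in WT OVA libraries 5, 6 and 9 and 6120, 7877 and 4729 FPKM in WT PBS libraries 1, 2 and 3. The knockout and WT OVA ranges overlapped, because DJ1_KO_OVA_266 lay above WT OVA library 6. As a percentage of the FPKM sum of the library, the members held 1.18, 1.69 and 1.25% in DJ-1 KO OVA, against 1.53, 1.26 and 1.66% in WT OVA and 1.25, 1.43 and 1.21% in WT PBS. On that scale the highest of the 9 values was in a knockout library.

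The members moved together from library to library within every group. DJ1_KO_OVA_266 was the highest of the 3 knockout libraries for 74 of the 80 members and DJ1_KO_OVA_263 the lowest for 74. Among all genes tested, DJ1_KO_OVA_266 was the highest for 40.5% and DJ1_KO_OVA_263 the lowest for 37.5%. In WT OVA, library 6 was the lowest for 72 members, and in WT PBS library 3 was the lowest for 73. With each member centred on its own mean over the 9 libraries, the mean over members was -0.77, 0.26 and -0.44 (log2) in the same order of DJ-1 KO OVA libraries, against 0.47, 0.13 and 0.58 in WT OVA and -0.08, 0.28 and -0.42 in WT PBS. Complexes I, III, IV and V followed this course in nearly the same way. Complex II stood apart, at -0.16, 0.52 and 0.33 in DJ-1 KO OVA, against 0.12, -0.25 and 0.03 in WT OVA and -0.17, -0.13 and -0.29 in WT PBS.

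**Figure D1:**
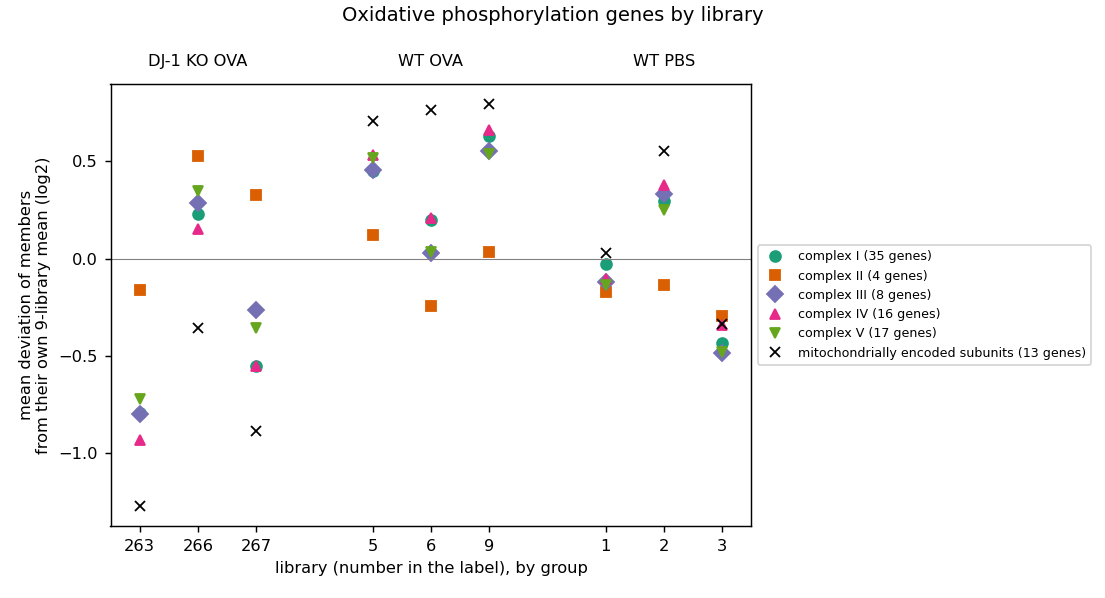
Mean deviation of the members of each complex from their own 9-library mean (log2, vertical axis) in each library (horizontal axis, by group), with the 13 mitochondrially encoded subunits as crosses. Points of complexes I, III, IV and V lie close together within a library, DJ1_KO_OVA_266 lies far above DJ1_KO_OVA_263, and complex II lies above the other complexes in all 3 knockout libraries.

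The 10 other coding genes whose values were most like this course over the 9 libraries had Pearson r of 0.993 to 0.996 with it. They were Psmg4, Sec61g, Micos13, Pnkd, 1500011B03Rik, Mrps14, Ciao2b, S100a13, Tmem258 and Srp14. They were picked from 11249 genes for their likeness, and the 9 libraries share depth and scaling with the members, so r is a description.

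In DJ-1 KO OVA against WT OVA, which asks how the challenged lung differs without DJ-1, 15 of the 80 tested members were lower and 1 was higher (limma across 17716 genes, Benjamini-Hochberg adjusted p below 0.05). Among all genes tested, 8.24% were lower and 5.93% higher. The 15 were Ndufa3, Ndufa4, Ndufa5, Ndufa6, Ndufa7, Ndufa12, Ndufb4, Ndufb11, Ndufc2, Uqcrh, Cox4i2, Cox6a2, Cox6b2, Cox7a2l and Cox8b. The 1 higher was Sdha. Differences were negative for 71 members and positive for 9, with a median of -0.81 (log2), against a median of 0 over all genes tested. The authors' library sizes hold that all-gene median near 0 in each comparison, so it is not a separate observation. The values of the groups did not overlap for 27 members that were lower and 3 that were higher (Sdha, Sdhd and Ndufs1). Among all genes, groups did not overlap for 18.8% in the lower and 18.4% in the higher direction.

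These counts depended on single libraries. Without DJ1_KO_OVA_266, 52 members were lower, among them all 15, and 2 were higher, with 16.8% of all genes lower and 15.4% higher. Without DJ1_KO_OVA_263, without DJ1_KO_OVA_267, or without WT OVA library 5, 6 or 9, Cox6a2 was the 1 member lower, with 0.909 to 3.1% of all genes lower. Without WT PBS library 1, 7 members were lower, with 4.39% of all genes lower. In those knockout and WT OVA omissions apart from DJ1_KO_OVA_266, the adjusted p of the other 14 ran from 0.05 to 0.17 (limma). Scaled to equal FPKM sums, 9 members were higher and 6 lower, against 25% of all genes higher and 3.38% lower, and the median of all genes was 0.46. After quantile normalization 4 members were higher and 10 lower, against 6.11% and 7.41% of all genes.

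**Figure D2:**
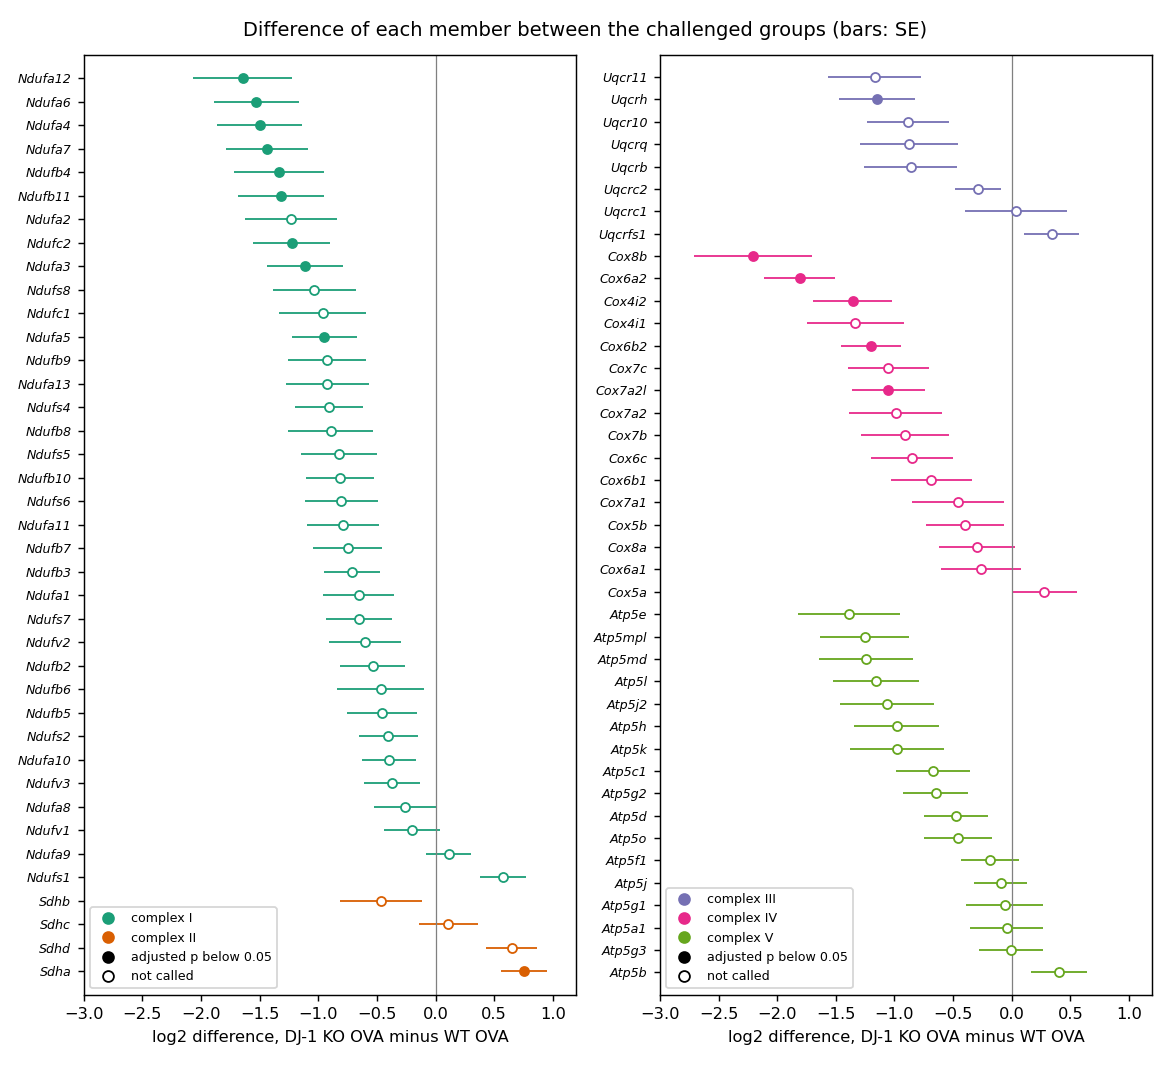
Difference of group means on log2(FPKM + 0.5), DJ-1 KO OVA minus WT OVA, for the 80 tested members, sorted within complexes, with bars of 1 standard error and filled points for adjusted p below 0.05. Most points lie left of 0, with Cox8b at -2.21 and Cox6a2 at -1.81 the farthest, and Sdha at 0.75 is the filled point on the right.

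Complex I, which oxidises NADH, had 9 lower and 0 higher of 35 tested members (limma; 24 had an unadjusted p below 0.05), with a median difference of -0.81. To be set beside the counts of each complex, 8.24% of all genes tested were lower and 5.93% higher. An unadjusted p below 0.05 (limma) was found for 6234 of those 17716 genes. Of the 9, 8 are accessory subunits, which surround the catalytic core, and the other is Ndufa4. Of the 29 members outside the core, Ndufa4 included, 28 had a negative difference, with a median of -0.90. Of the 6 tested core members, which carry the flavin, the iron-sulfur clusters or the quinone site, 0 passed the test (3 had an unadjusted p below 0.05), with a median of -0.50. The difference between the core and the other members was not tested.

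Ndufa6 (ENSMUSG00000022450, chromosome 15, 82350140 to 82354322, GRCm38), an accessory subunit, was at 23.4, 58.0 and 29.2 FPKM in DJ-1 KO OVA, against 84.9, 95.1 and 121.7 FPKM in WT OVA and 51.8, 90.4 and 45.0 FPKM in WT PBS. Every knockout value lay below every WT OVA value, and DJ1_KO_OVA_266 lay above 2 of the 3 WT PBS values. Its log2 difference between the challenged groups was -1.53 ± 0.36 (SE, limma adjusted p = 0.026). Ndufa4, counted here in complex I by its name and now known as a subunit of complex IV, was at 50.2, 97.5 and 41.4 FPKM in DJ-1 KO OVA, against 167, 139 and 201 FPKM in WT OVA, a difference of -1.50 ± 0.36 (limma adjusted p = 0.028). Ndufa7 was at 22.6, 58.7 and 27.8 FPKM in DJ-1 KO OVA, against 91.5, 79.1 and 104 FPKM in WT OVA (-1.44 ± 0.35, limma adjusted p = 0.029). Neither gene's groups overlapped, and DJ1_KO_OVA_266 was the highest knockout value in both. Ndufb11, the complex I member with the highest mean, was at 87.1, 197 and 91.9 FPKM in DJ-1 KO OVA, against 294, 261 and 322 FPKM in WT OVA (-1.32 ± 0.36, limma adjusted p = 0.041). Ndufa12, at 4.31, 8.34 and 5.03 FPKM in DJ-1 KO OVA, was uneven in WT OVA, at 12.8, 13.0 and 39.2 FPKM.

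The core of complex I behaved differently from gene to gene. Ndufs1, the largest iron-sulfur protein of the complex, was at 6.71, 5.82 and 8.11 FPKM in DJ-1 KO OVA, against 3.70, 4.63 and 4.999 FPKM in WT OVA and 3.76, 4.89 and 4.43 FPKM in WT PBS. All 3 knockout values lay above all WT values, and the difference of 0.58 ± 0.20 did not pass the test (limma adjusted p = 0.069). Ndufv1, which binds NADH, had a difference of -0.20 ± 0.24, and Ndufs7, which carries the cluster nearest the quinone, one of -0.65 ± 0.28. Their adjusted p were 0.57 and 0.13 (limma).

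Complex II, succinate dehydrogenase, was the 1 complex with a positive median, 0.38 over 4 members, with 1 higher and 0 lower (2 had an unadjusted p below 0.05). With 5.93% of all genes higher, 1 of 4 is not read as a result about the complex. Sdha (ENSMUSG00000021577, chromosome 13, 74322254 to 74350280, GRCm38) is its flavoprotein, which oxidises succinate. It was at 49.5, 50.2 and 70.4 FPKM in DJ-1 KO OVA, against 31.9, 32.2 and 34.8 FPKM in WT OVA and 30.1, 29.3 and 34.7 FPKM in WT PBS. The knockout values lay above all 6 WT values, and the 2 WT groups overlapped. Sdha was 1.69-fold higher than in WT OVA (0.75 ± 0.20 log2, limma adjusted p = 0.036), a call that was lost without DJ1_KO_OVA_267 (adjusted p = 0.14), without WT OVA library 5, 6 or 9 (0.11, 0.096 and 0.092, limma) and without WT PBS library 1 (0.064).

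Sdhd, a membrane anchor of complex II, was at 65.7, 92.5 and 97.1 FPKM in DJ-1 KO OVA, against 62.3, 46.6 and 52.2 FPKM in WT OVA (0.65 ± 0.22, limma adjusted p = 0.065), and passed the test without DJ1_KO_OVA_263, at a difference of 0.82. Sdhb, the iron-sulfur protein, was at 38.3, 95.8 and 53.6 FPKM in DJ-1 KO OVA, against 90.9, 61.01 and 94.1 FPKM in WT OVA, with overlapping groups and a difference of -0.46 ± 0.35 (limma adjusted p = 0.35). The ratio of Sdha to Sdhb, which no scaling between libraries changes, was 1.29, 0.523 and 1.31 in DJ-1 KO OVA, against 0.351, 0.528 and 0.369 in WT OVA and 0.470, 0.385 and 0.787 in WT PBS. Knockout DJ1_KO_OVA_266 lay within the WT range of that ratio. The ratio was chosen after its values were seen, as 1 of 8 ratios computed, and an exact two-sided permutation test between the challenged groups gave p = 0.2 (0.229 adjusted over the 8), where 3 against 3 libraries allow no p below 0.1.

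**Figure D3:**
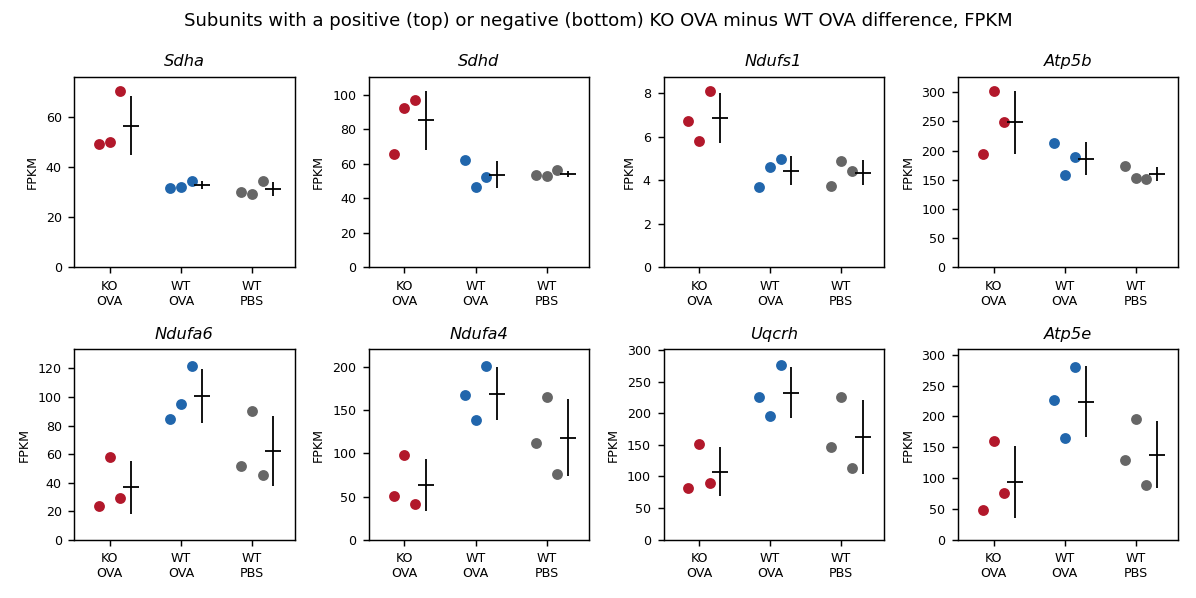
FPKM per library (vertical axes, each from 0) of 4 members with a positive difference (top row) and 4 with a negative one (bottom row), with the mean and SD of each group beside its 3 points. Sdha at 49.5 to 70.4 FPKM in DJ-1 KO OVA lies above WT OVA and WT PBS, while Ndufa6, Ndufa4 and Uqcrh lie below WT OVA in all 3 knockout libraries.

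Complex III had 1 lower and 0 higher of 8 members (3 had an unadjusted p below 0.05), with a median of -0.87. With 8.24% of all genes lower, 1 of 8 is not read as a result about the complex. The member that passed was Uqcrh, the hinge protein that helps cytochrome c bind, at 81.3, 152 and 89.7 FPKM in DJ-1 KO OVA, against 226, 195 and 276 FPKM in WT OVA (-1.15 ± 0.32, limma adjusted p = 0.043). Uqcr11 and Uqcr10, small subunits of the complex, had differences of -1.17 ± 0.40 and -0.88 ± 0.35 with adjusted p of 0.068 and 0.1 (limma). Uqcrfs1, the Rieske iron-sulfur protein, went the other way without passing the test, at 74.6, 119 and 116 FPKM in DJ-1 KO OVA, against 85.2, 67.6 and 87.6 FPKM in WT OVA (0.34 ± 0.23, limma adjusted p = 0.31).

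Complex V had 0 lower and 0 higher of 17 members in limma (8 had an unadjusted p below 0.05), with a median of -0.65. Limma-voom on the recovered reads called 4 of them lower, Atp5e, Atp5l, Atp5md and Atp5mpl. Atp5e, a small subunit of the central stalk, was at 48.0, 160 and 75.2 FPKM in DJ-1 KO OVA, against 226, 165 and 280 FPKM in WT OVA (-1.39 ± 0.44, limma adjusted p = 0.057). Atp5mpl and Atp5l, small subunits of the membrane part, had differences of -1.25 ± 0.38 and -1.16 ± 0.36 and adjusted p of 0.05 and 0.057 (limma). The catalytic subunits did not share that sign in full. Atp5b, the catalytic beta subunit, was at 194, 302 and 250 FPKM in DJ-1 KO OVA, against 213, 157 and 188 FPKM in WT OVA (0.40 ± 0.24, limma adjusted p = 0.25), and Atp5a1 had a difference of -0.04 ± 0.31.

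Complex IV, cytochrome c oxidase, had 5 lower and 0 higher of 16 tested members (10 had an unadjusted p below 0.05), with a median of -0.95. Of the 5, Cox6a2, Cox8b, Cox4i2 and Cox6b2 are paralogs with restricted expression, and Cox7a2l is known from supercomplexes of complexes III and IV. Supercomplexes were not measured in these mice. Cox6a2 and Cox8b are the forms of heart and skeletal muscle, Cox4i2 is a form of lung and of cells that sense oxygen, and Cox6b2 is the testis form. In every library each of the 4 made up at most 9.38% of its summed FPKM with the widely expressed partner.

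Cox6a2 (ENSMUSG00000030785, chromosome 7, 128205435 to 128206387, GRCm38) was at 6.11, 11.6 and 4.99 FPKM in DJ-1 KO OVA, against 27.7, 28.4 and 22.8 FPKM in WT OVA and 26.4, 40.9 and 25.3 FPKM in WT PBS. The knockout values lay below all 6 WT values, also in DJ1_KO_OVA_266. These FPKM rest on 143, 187 and 83 reads in DJ-1 KO OVA and on 361, 442 and 305 reads in WT OVA. Cox6a2 was 3.50-fold lower than in WT OVA (-1.81 ± 0.30 log2, limma adjusted p = 0.0093), and it was the 1 member that passed the test under each of the 20 alternatives tried, with adjusted p of 0.0017 to 0.046. As a share of Cox6a2 and Cox6a1 together, it made up 2.50, 1.97 and 1.51% in DJ-1 KO OVA, against 5.11, 7.58 and 4.96% in WT OVA and 6.69, 9.38 and 7.50% in WT PBS, with no overlap of the knockout and the WT libraries. Exons of the integrin gene Itgad cover 10.3% of its exon length, and Itgad had a difference of -0.54 ± 0.20 between the challenged groups (limma adjusted p = 0.079).

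Cox8b had 2, 2 and 3 reads in DJ-1 KO OVA, against 23, 16 and 27 reads in WT OVA and 3, 34 and 16 reads in WT PBS. Pooled over the 3 libraries of a group and divided by library size, the ratio of DJ-1 KO OVA to WT OVA was 0.0794, with an exact 95% interval of 0.0307 to 0.173 that covers counting error only. The WT PBS libraries ran from near the knockout level to above WT OVA. Cox4i2 was at 0.774, 0.860 and 0.259 FPKM in DJ-1 KO OVA, against 2.38, 1.99 and 2.58 FPKM in WT OVA and 1.31, 4.02 and 1.90 FPKM in WT PBS (-1.36 ± 0.34 between the challenged groups, limma adjusted p = 0.03). Its share of Cox4i2 and Cox4i1 overlapped between the groups, at 0.497, 0.182 and 0.108% in DJ-1 KO OVA and 0.360, 0.362 and 0.331% in WT OVA. Cox6b2 was at 6.00, 11.3 and 6.01 FPKM in DJ-1 KO OVA, against 17.4, 18.2 and 17.6 FPKM in WT OVA (-1.20 ± 0.25, limma adjusted p = 0.02).

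The widely expressed partners were not called. Cox4i1, the member with the highest mean in WT OVA, was at 155, 471 and 239 FPKM in DJ-1 KO OVA, against 659, 548 and 778 FPKM in WT OVA (-1.33 ± 0.41, limma adjusted p = 0.054). Cox6a1 and Cox8a had differences of -0.26 ± 0.34 and -0.30 ± 0.32. Both turned positive when libraries were scaled to equal FPKM sums, quantile-normalized or corrected for gene length and GC content. Cox6b1, Cox7a2 and Cox7b lay at -0.69, -0.99 and -0.91. Cox7a1, the remaining muscle form, was at 1.68, 6.17 and 3.97 FPKM in DJ-1 KO OVA, against 4.97, 3.75 and 6.75 FPKM in WT OVA, with overlapping groups.

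**Figure D4:**
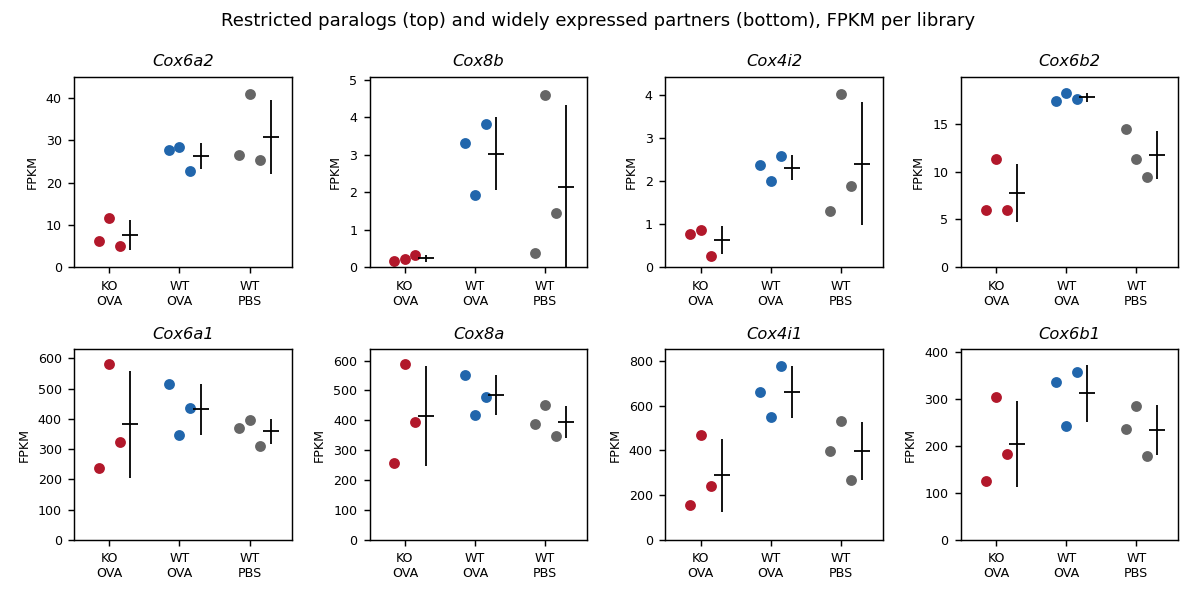
FPKM per library (vertical axes, each from 0) of 4 complex IV paralogs with restricted expression (top row) and their widely expressed partners (bottom row), with the mean and SD of each group beside its 3 points. Cox6a2 lies at 4.99 to 11.6 FPKM in DJ-1 KO OVA and at 22.8 to 40.9 FPKM over the 6 WT libraries, while Cox6a1 and Cox8a overlap between all groups.

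Since Cox6a2 and Cox8b are muscle forms, the muscle markers were read beside them. The 10 cardiomyocyte markers summed to 3.92, 11.7 and 5.06 FPKM in DJ-1 KO OVA, against 15.8, 14.2 and 14.2 FPKM in WT OVA and 7.66, 10.2 and 10.1 FPKM in WT PBS. The largest part of each sum was Myl7, at 2.17, 7.61 and 3.53 FPKM in DJ-1 KO OVA, against 9.71, 7.03 and 8.96 FPKM in WT OVA. Myl7 overlapped between these groups and was not called (limma adjusted p = 0.078). Of 5 markers that could be tested, 2 (Actc1 and Myl4) were lower and 0 higher than in WT OVA, against 8.24% and 5.93% of all genes. The 5 skeletal muscle markers summed to at most 0.613 FPKM in DJ-1 KO OVA, 1.70 FPKM in WT OVA and 1.03 FPKM in WT PBS, and Myh4 was at 0 throughout. Of 2 of them that could be tested, Acta1, the actin of skeletal muscle, was lower at 0.0757, 0.110 and 0.133 FPKM in DJ-1 KO OVA, against 1.02, 0.767 and 0.397 FPKM in WT OVA, with no overlap (-0.99 ± 0.22, limma adjusted p = 0.024). The part of these cells in the difference of Cox6a2 was not tested.

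Markers of other cells were read as well. For each list below, the shares of all genes tested were 8.24% lower and 5.93% higher. All 5 neutrophil markers were lower in DJ-1 KO OVA than in WT OVA, with sums of 1332 to 4288 FPKM in DJ-1 KO OVA against 12863 to 19124 FPKM in WT OVA. Of 5 ciliated cell markers 2 (Tppp3 and Dynlrb2) were lower, with a list median of -1.39 and sums of 68.4 to 183 FPKM in DJ-1 KO OVA against 341 to 455 FPKM in WT OVA, which did not overlap. Of 4 club cell markers 1 was lower, Scgb3a2, a secretory protein of these airway cells (-2.44 ± 0.44, limma adjusted p = 0.012), with a list median of -1.26. Of 7 alveolar type 2 markers 1 was lower, with a list median of -0.65, and Sftpc was not called (limma adjusted p = 0.055). Calls of 1 of 4 club and 1 of 7 alveolar type 2 markers are not read as results about those cells. Of 4 B cell markers 3 were lower, and of 5 T cell and 5 fibroblast markers 3 each were higher. The RNA quality list (Malat1 and other nuclear-retained RNAs) had 0 calls of 4 tested members, with a median difference of -0.06. Its sums were uneven, at 64.9, 26.3 and 31.4 FPKM in DJ1_KO_OVA_263, DJ1_KO_OVA_266 and DJ1_KO_OVA_267. They were 24.2, 46.8 and 42.2 FPKM in WT OVA and 25.3, 39.4 and 32.6 FPKM in WT PBS. DJ1_KO_OVA_263, the lowest knockout for most members, held the highest sum. Likewise WT OVA library 6, the lowest of its group for most members, held the highest sum of that group. In WT PBS the highest sum was in library 2, which was the highest for most members. A relation of RNA quality to the members' course was not tested. The part of cell mixture in the members' differences was not tested.

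Windows before the start of 5 called members are shown because they hold motifs known from promoters of respiratory chain genes, or of muscle genes in Cox8b, and because members that share a motif moved in opposite directions. The sequences are the 250 bases upstream of the RefSeq start (GRCm38.p6), 5′ to 3′ on the strand of the gene, with motif matches in capitals. By the deposited coordinates Ndufa5 reaches from 24518666 to 24528013, so its whole window and its match lie inside the gene. The windows of Sdha, Ndufb4 and, at its edge, Uqcrh overlap their genes in part. The motif of the nuclear respiratory factor NRF1, searched on both strands as GCGCA, any base and GCGC, is marked in Sdha, Ndufb4 and Ndufa5. The ETS-type motif CCGGAAG, with CTTCCGG on the other strand, is marked in Uqcrh, and the E-box CAGCTG, which reads the same on both strands, in Cox8b.
Sdha (chr13:74350241-74350490, minus strand): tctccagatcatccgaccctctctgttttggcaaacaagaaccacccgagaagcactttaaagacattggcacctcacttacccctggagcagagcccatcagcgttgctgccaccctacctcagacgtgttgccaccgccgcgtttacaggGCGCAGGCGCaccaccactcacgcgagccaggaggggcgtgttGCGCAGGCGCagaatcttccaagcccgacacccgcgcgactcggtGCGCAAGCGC
Ndufb4 (chr16:37654369-37654618, minus strand): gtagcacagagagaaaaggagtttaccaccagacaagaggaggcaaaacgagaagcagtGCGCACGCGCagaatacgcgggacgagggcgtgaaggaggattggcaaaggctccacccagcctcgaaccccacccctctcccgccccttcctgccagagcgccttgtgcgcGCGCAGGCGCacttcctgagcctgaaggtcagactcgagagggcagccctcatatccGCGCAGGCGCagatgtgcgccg
Ndufa5 (chr6:24527691-24527940, minus strand): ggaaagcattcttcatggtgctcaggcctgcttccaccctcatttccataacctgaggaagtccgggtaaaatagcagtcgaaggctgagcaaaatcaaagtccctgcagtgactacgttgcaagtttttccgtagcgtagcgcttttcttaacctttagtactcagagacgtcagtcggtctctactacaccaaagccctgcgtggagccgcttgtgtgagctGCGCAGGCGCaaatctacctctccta
Uqcrh (chr4:116075071-116075320, minus strand): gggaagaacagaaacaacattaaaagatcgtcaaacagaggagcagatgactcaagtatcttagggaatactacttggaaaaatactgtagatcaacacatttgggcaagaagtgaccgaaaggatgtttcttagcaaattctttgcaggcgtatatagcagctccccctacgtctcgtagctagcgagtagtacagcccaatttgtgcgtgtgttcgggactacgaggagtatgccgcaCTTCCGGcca
Cox8b (chr7:140900447-140900696, minus strand): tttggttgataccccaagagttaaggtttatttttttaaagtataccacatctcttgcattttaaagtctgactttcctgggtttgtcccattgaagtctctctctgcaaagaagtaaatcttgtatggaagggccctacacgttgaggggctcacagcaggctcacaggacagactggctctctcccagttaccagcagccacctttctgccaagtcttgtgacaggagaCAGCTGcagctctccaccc
Sdha, which was higher in DJ-1 KO OVA, and Ndufb4, which was lower, each held 3 matches of the NRF1 motif, and Ndufa5, also lower, held 1. Of 67 members with a window in the table, 13 (19.4%) held the NRF1 motif, against 4.23% of all 27025 genes with a window. The ETS-type motif was in 12 members (17.9%), against 7.83% of all genes, and the E-box in 6 members (8.96%), against 14.7%. Of the 14 called members with a window, 3 held the NRF1 motif, 1 the ETS-type motif and 1 the E-box. A match is only a run of these letters, and no test was made of it.

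The members share short coding sequences. Their median coding length was 405 bases, against 1350 bases for the 13880 coding genes tested. The difference between DJ-1 KO OVA and WT OVA followed coding length, with a Spearman rho of 0.56 over the 80 members and 0.49 over all coding genes. Among coding sequences of up to 300 bases, the median difference was -1.05 over 23 members and -0.71 over all 314 genes. Above 300 and up to 600 bases it was -0.82 over 38 members and -0.50 over 1625 genes. Above 600 and up to 1200 bases it was -0.46 over 10 members and -0.12 over 4091 genes, and above 1200 bases -0.04 over 9 members and 0.25 over 7850 genes. The median of the members was below that of all coding genes of their length in each range. Below 1200 bases that gap was smaller than the distance of the members from 0. All 15 members that were lower had coding sequences of at most 600 bases, and Sdha, which was higher, has 1992. A separate alternative removed the trend with GC content and with gene length, the length that FPKM is divided by. Under it 11 members were lower and 3 higher, against 7.95% of all genes lower and 5.66% higher, with a member median of -0.45. Gene length is not coding length, and its Spearman rho with the difference was 0.40 over the members. The trend with coding length itself was not removed.

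**Figure D5:**
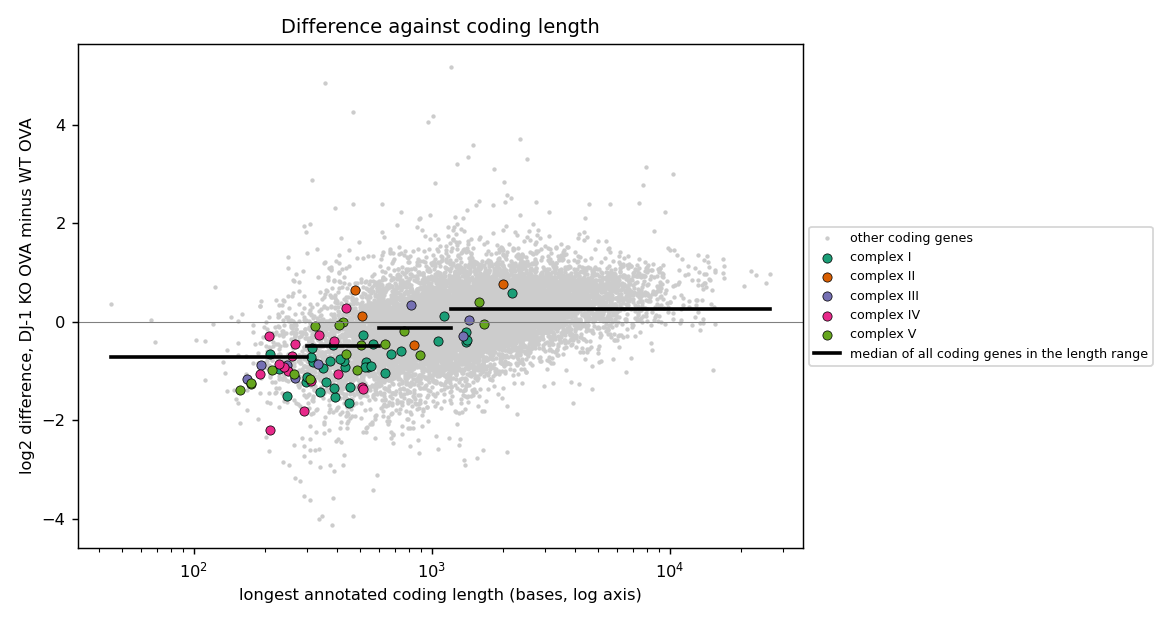
Difference of group means on log2(FPKM + 0.5), DJ-1 KO OVA minus WT OVA (vertical axis), against the longest annotated coding length in bases (logarithmic horizontal axis), for members (coloured by complex) and other coding genes (grey), with black lines at the median of all coding genes in 4 length ranges. The black lines run from -0.71 for the shortest to 0.25 for the longest genes, and most members lie in the 2 shorter ranges below the line.

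In WT OVA against WT PBS, which asks what ovalbumin challenge does to the wild-type lung, 0 of 80 members were higher and 0 lower (limma; 5 had an unadjusted p below 0.05, and limma-voom also called 0). Among all genes tested 0.00564% were higher and 0% lower, and 1146 of 17716 had an unadjusted p below 0.05 (limma). Differences were positive for 77 members and negative for 3, with a median of 0.50, against a median of 0 over all genes. The groups did not overlap for 13 members, all with higher values in WT OVA, against 7.25% of all genes in the higher and 7.52% in the lower direction. The sizes followed coding length in the opposite direction, with a Spearman rho of -0.59 over the 80 members and -0.43 over all coding genes.

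The 2 members with the smallest p were Ndufa12 and Cox7a1. Ndufa12 was at 12.8, 13.0 and 39.2 FPKM in WT OVA, against 6.89, 8.94 and 4.69 FPKM in WT PBS (1.44 ± 0.42, limma adjusted p = 0.73). Cox7a1 was at 4.97, 3.75 and 6.75 FPKM in WT OVA, against 3.15, 1.82 and 1.46 FPKM in WT PBS (1.11 ± 0.39, limma adjusted p = 0.73). In both, the lowest WT OVA value lay above the highest WT PBS value. Cox6a2, by contrast, overlapped between these groups, with a difference of -0.20 ± 0.30.

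In DJ-1 KO OVA against WT PBS, which sets genotype and challenge together against the baseline, 1 member was higher (Sdha) and 2 were lower (Cox6a2 and Cox4i2). Among all genes tested, 4.07% were higher and 4.47% lower. Differences were negative for 61 members and positive for 19, with a median of -0.28, against a median of 0 over all genes. The groups did not overlap for 6 members with higher values in DJ-1 KO OVA (Sdha, Sdhd, Ndufs1, Ndufa9, Uqcrfs1 and Atp5b) and 3 with lower values (Cox6a2, Cox8b and Cox4i2), against 12.7% of all genes in the higher and 12.9% in the lower direction. Both comparisons of the knockout share its 3 libraries, so they are not independent. Cox6a2 had a difference of -2.01 ± 0.30 from WT PBS (limma adjusted p = 0.0048), Cox4i2 one of -1.30 ± 0.34 (limma adjusted p = 0.041) and Sdha one of 0.83 ± 0.20 (limma adjusted p = 0.03). Cox6a2 passed in all 20 alternatives. Without DJ1_KO_OVA_266, 12 members were lower and 2 higher, against 11.3% of all genes lower and 10.7% higher. Sdha did not pass without DJ1_KO_OVA_267, any 1 WT OVA library or WT PBS library 1 or 2 (adjusted p of up to 0.12, limma). Cox4i2 did not pass without DJ1_KO_OVA_263 or DJ1_KO_OVA_267, any 1 WT OVA library or WT PBS library 2 or 3 (up to 0.16). Ndufa6 and Ndufa4, both lower against WT OVA, had differences of -0.79 and -0.93 from WT PBS and did not pass the test (limma adjusted p = 0.19 and 0.14). With equal FPKM sums 6 members were higher and 1 lower than in WT PBS, against 5.44% of all genes higher and 2.43% lower. After quantile normalization 5 members were higher and 2 lower, against 4.3% and 4.75% of all genes.

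The subunits encoded in the mitochondrial genome were lower in DJ-1 KO OVA than in WT OVA for 9 of 13 and higher for 0 (limma), with a median of -1.45. Among the 9, mt-Co2, mt-Co3, mt-Atp6, mt-Nd3, mt-Nd4l and mt-Atp8 had WT OVA means of 128, 117, 101, 89.3, 26.8 and 13.4 FPKM. The mean of mt-Co1 was 13825 FPKM. It is not known whether reads of the low genes were lost in counting. mt-Co1, mt-Cytb, mt-Nd5 and mt-Nd6 were not called (limma adjusted p = 0.14, 0.091, 0.092 and 0.06). The shares of all genes tested were 8.24% lower and 5.93% higher. Reads of these 13 subunits made up 1.87, 2.53 and 2.05% of all reads in DJ-1 KO OVA, against 4.01, 4.39 and 4.19% in WT OVA and 2.80, 3.85 and 2.32% in WT PBS. These shares did not overlap between the challenged groups, and a share of reads was not computed for the nuclear members. Summed FPKM of the 13 subunits was 11824.1 to 20149.3 in DJ-1 KO OVA and 34484.5 to 36947.7 in WT OVA. Unlike the summed FPKM of the nuclear members, it did not overlap. mt-Nd3, a membrane subunit of complex I, was at 3.34, 10.3 and 4.35 FPKM in DJ-1 KO OVA, against 91.3, 85.4 and 91.3 FPKM in WT OVA (-3.94 ± 0.34, limma adjusted p = 0.00036). mt-Atp8, a subunit of complex V, had a difference of -2.35 ± 0.36 (limma adjusted p = 0.007). Both mt-Nd3 and mt-Atp8 kept their call in the 20 alternatives. The neighbours of mt-Nd3 on the mitochondrial genome, mt-Co3 and mt-Nd4l, differed less, at -1.97 and -1.12. Why mt-Nd3 differed more than its neighbours was not tested.

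Genes that build or feed the complexes did not move as a block. Of 43 tested assembly factors, 6 were lower and 2 higher in DJ-1 KO OVA than in WT OVA, with a median of -0.28. The shares of all genes tested were 8.24% lower and 5.93% higher. The 2 with the smallest p were Uqcc3 (-1.09 ± 0.24) and Cox14 (-1.21 ± 0.29), which help assemble complexes III and IV, at adjusted p of 0.023 and 0.028 (limma). The 2 that were higher, Cox10 and Cox15, make the heme of complex IV. Without DJ1_KO_OVA_263, without DJ1_KO_OVA_267 or without any 1 WT OVA library, neither Uqcc3 nor Cox14 passed, with adjusted p of up to 0.097 and 0.11 over the alternatives (limma). Of 8 electron carriers and related subunits outside the naming rule 0 passed (limma), and Etfb, of the electron transfer flavoprotein, and Atpif1, an inhibitor of complex V, lay at -0.82 and -0.88.

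Of 17 citric acid cycle genes, 3 were higher and 0 lower, with a median of 0.13. For this list and those that follow, the shares of all genes tested were 5.93% higher and 8.24% lower. Ogdh, of the 2-oxoglutarate dehydrogenase complex, was at 40.8, 42.6 and 55.5 FPKM in DJ-1 KO OVA, against 26.9, 25.96 and 23.0 FPKM in WT OVA (0.85 ± 0.22, limma adjusted p = 0.036). It lost its call without DJ1_KO_OVA_263, DJ1_KO_OVA_267, any 1 WT OVA library or WT PBS library 1, with adjusted p of up to 0.14 (limma). Sdha belongs to the same cycle. Of 14 regulators of mitochondrial biogenesis, 1 was higher and 0 lower, with a median of 0.30. It was Ppargc1b, a coactivator of respiratory genes, at 1.49, 1.67 and 2.88 FPKM in DJ-1 KO OVA, against 0.875, 0.252 and 0.522 FPKM in WT OVA (1.26 ± 0.27, limma adjusted p = 0.02), and it did not pass without DJ1_KO_OVA_267 or without WT OVA library 6 or 9 (up to 0.081). Pprc1, a related coactivator, had a difference of 0.71 ± 0.22 (limma adjusted p = 0.054). Of 17 genes of import and the outer membrane, 3 were higher and 2 lower. Hspd1, the matrix chaperonin, was at 82.4, 55.1 and 67.7 FPKM in DJ-1 KO OVA, against 33.6, 31.7 and 36.4 FPKM in WT OVA (0.99 ± 0.20, limma adjusted p = 0.016), and Tomm70a, an import receptor, had a difference of 0.98 ± 0.21 (limma adjusted p = 0.022). Both lost their call without DJ1_KO_OVA_267 or any 1 WT OVA library, and Tomm70a also without DJ1_KO_OVA_263 (adjusted p of up to 0.066 for Hspd1 and 0.093 for Tomm70a, limma). In WT OVA against WT PBS, 0 genes of these 6 lists passed the test.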

How the data were processed

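RNA of 9 mouse lung libraries, 3 per group, was analysed from a table of FPKM values that the authors deposited. Per the labels' protocols, an Illumina TruSeq kit was used on total RNA. Trimmomatic, HISAT2, HTSeq and GRCm38.p6 are named, per the submitters' processing notes, with no versions. The strand setting of the counting was not given in these sources, so reads of overlapping genes cannot be told apart. Reads were recovered from the steps of the deposited FPKM values (100% whole within 0.01 reads); the authors' library sizes followed median-of-ratios scaling.

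Genes with a mean of at least 0.2 FPKM (17716) were tested as log2(FPKM + 0.5) in 1 limma fit over the 3 groups (limma 3.58.1, R 4.3.3, trended variance, 6 residual degrees of freedom, Benjamini-Hochberg adjustment over all genes, threshold 0.05). Differences on this scale understate the change of low genes. Nothing states that libraries came from separate animals, so p-values measure only the spread between these libraries, which may be technical. An exact permutation test of 3 against 3 cannot go below 0.1. Intervals cover counting error only. The fit was also run on simulated reads, drawn independently for each gene at a single dispersion. Those reads had no shift shared by many genes of a library, so that run says nothing about such shifts here.

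The members, lists and named genes were chosen with earlier results of these data known. Named were, of each complex, the 3 members with the smallest p and the one with the highest mean; the 2 largest rises; the 2 smallest p in WT OVA against WT PBS; paralogs; catalytic subunits; and 2 genes per related list, of which 1 is not reported here. The other called members, the members whose groups did not overlap, Itgad and muscle markers were named after their values were seen. Coding lengths came from GENCODE M21 and upstream windows from RefSeq. Alternatives changed the pseudocount, filter, scaling, model and libraries. The alternative that removed a trend with length used gene length, not coding length.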

Additional observations from a re-analysis of the deposited data

How the results depend on the processing

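Among 20 alternatives, leaving out 1 library moved the count of members lower in DJ-1 KO OVA than in WT OVA most, from 1 to 52, and that of higher members from 0 to 2; against WT PBS the counts ran from 1 to 12 lower and 0 to 2 higher. Against WT OVA, higher and lower members numbered (with the shares of all genes higher and lower in brackets) 0 and 1 with no filter (0.902% and 1.22%), 9 and 6 with equal FPKM sums (25% and 3.38%), 4 and 10 after quantile normalization (6.11% and 7.41%), 3 and 16 with recovered read totals (9.08% and 6.19%), 3 and 11 after removal of the trend with length and GC (5.66% and 7.95%), 1 and 25 with limma-voom (7.94% and 10.1%), and 0 and 6 with only the 2 groups fitted (2.26% and 4.13%). Against WT PBS they numbered 1 and 1 with no filter (1.08% and 1.13%), 6 and 1 with equal FPKM sums (5.44% and 2.43%), 5 and 2 after quantile normalization (4.3% and 4.75%), 2 and 2 with read totals (4.65% and 4.13%), 2 and 1 with the trend removed (5.18% and 5.46%), 1 and 1 with limma-voom (4.91% and 5.05%), and 0 and 1 with only 2 groups fitted (1.79% and 2.16%). With equal FPKM sums the member median was -0.20 against WT OVA and 0.0202 against WT PBS, a reversed sign. Differences between the challenged groups that turned positive with equal FPKM sums were those of Sdhb (0.15), Cox7a1 (0.0827), Cox6a1 (0.36), Cox8a (0.32), Ndufv1 (0.41) and Atp5a1 (0.53). Cox6a1 and Cox8a also turned with quantile normalization (0.48 and 0.49), with the trend removed (0.29 and 0.22) and without DJ1_KO_OVA_263 (0.0258 and 0.00511), and Atp5a1 with read totals (0.146), without DJ1_KO_OVA_263 (0.0311) and without WT OVA library 5 (0.377); over all such omissions they ran from -0.615 to 0.0258, -0.594 to 0.00511 and -0.263 to 0.377. The cause was not tested. WT OVA against WT PBS had 0 calls among members in each alternative. No paired analysis was possible because the groups share no replicate numbers. Genes of few reads, such as Cox8b, are limited by depth.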
